A study of Oryza sativa with 8 samples.

Results

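In rice seedlings, 300 genes were higher in drought than under normal watering. After rewatering they stood, by library totals, well below the level of plants that had never been stressed. They were chosen from 59903 rows of a table of RNA-seq counts by their own levels in wild type plants, in CPM (the count divided by the library total and multiplied by 1000000). A member had a normal mean of at least 5 CPM, a drought mean of at least 1.5 times normal and below 1000 CPM, and a recovery mean of no more than 0.571 times normal. Of the 59903 rows, 30074 held a count in a wild type library, 14199 reached 5 CPM under normal watering, and 2952 of these met both limits on drought. The 300 members made up 10.2% of these drought-raised rows and 2.11% of the 14199. With another scaling of the counts, described below, 120 of the 300 still met the rule. Because the rule used the levels in all 3 groups, those levels are a description of the genes and not a test of them.

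The plants were seedlings of MH63, an indica variety, labelled MH63-WT, with no transgene or mutation named for them. All were first watered for 14 days. Normal plants then stayed watered, drought plants went without water for 15 days, and recovery plants went through the same drought and were watered again for 4 days. At the end of the drought the relative soil water content was held near 5%. Each group had 2 libraries, each from at least 30 pooled seedlings, which the labels give as biological replicates. Another 2 libraries, labelled osbzip23 in place of WT, came from plants of that genotype after the same 15 days without water and no rewatering. They enter only an alternative fit and a closing description. Recovery plants were harvested 4 days after the drought plants. For normal plants the sample records used here list the first 14 days and give no length for the watering that followed. Their age at harvest is therefore uncertain. No normally watered plants known to match the recovery plants in age were analysed here. The effects of rewatering and of those 4 days of growth thus cannot be told apart in any recovery value. Any ratio to normal may also include a difference in age. In whole seedlings, fewer cells of a type and less RNA per cell cannot be told apart either.

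Water loss in plants raises the hormone abscisic acid, whose receptors release protein kinases that close stomata and activate transcription factors of the bZIP family. These switch on genes for protective proteins, sugar and water transport and the breakdown of the hormone itself. After rewatering the hormone is degraded, stomata reopen and growth resumes, and most induced transcripts are known to return towards their earlier level. The members are the drought-raised transcripts farthest below normal after rewatering. Some fall below normal was common by library totals. The median recovery level was 0.819 times normal in all 2952 drought-raised rows, beside 0.867 in all 14199 rows. Such a fall was thus not particular to drought-raised rows, and its size depends on the scaling described below. None of the 59903 row labels matched a reference list of 39387 rice genes, the table pairs no label with a gene name, and the labels are not evidence of which gene a wild type count belongs to. No function, family or sequence is therefore given for any member, and the seedling label was not checked against marker genes.

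The members were genes of middle abundance. Their median level was 17.7 and 17.8 CPM in the 2 normal libraries, 39.9 and 38.5 CPM in the drought libraries, and 8.69 and 8.66 CPM in the recovery libraries. The replicates lay close together and the groups were far apart, with drought highest and recovery lowest. Summed over all 300, the members took 0.966% ± 0.0056 of the counts under normal watering, 2.27% ± 0.0051 in drought and 0.480% ± 0.00095 in recovery (SD, n = 2 each). Their summed CPM in drought was 2.35 times normal, and that in recovery was 0.497 times normal. From drought to recovery the sum dropped 4.72-fold.

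**Figure D1:**
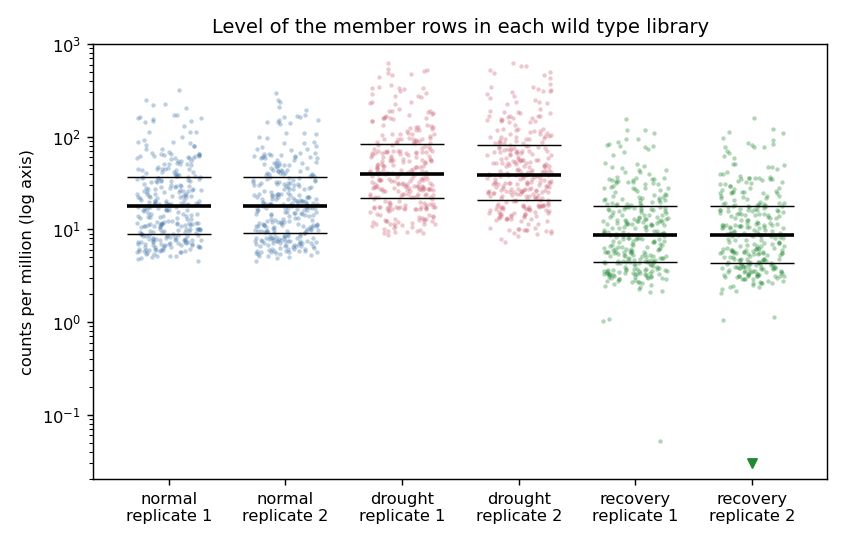
Each point is 1 of the 300 members in 1 wild type library, in CPM on a log axis. The thick line is the median and the thin lines are the quartiles, and the triangle is a row with 0 counts. The medians of both drought libraries, 39.9 and 38.5 CPM, sit above those of the normal libraries, and those of the recovery libraries, 8.69 and 8.66 CPM, sit below.

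The wild type libraries held from 37400784 to 42894245 counts. A member had a median of 731 and 666.5 counts in the normal libraries, 1664 and 1651 in the drought libraries and 331 and 339 in the recovery libraries. Low counts were rare. Each recovery library had 3 members under 50 counts, and the lowest member count in a normal or drought library was 169. Replicate levels of a member differed by a median factor of 1.06 in normal, 1.07 in drought and 1.09 in recovery libraries. For the 2581 drought-raised rows whose recovery lay nearer to normal, between 0.571 times normal and the inverse of that ratio, these factors were 1.06 in all 3 groups.

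All 300 members were called in each comparison by edgeR's quasi-likelihood test at an adjusted p under 0.05, as higher in drought than normal, lower in recovery than normal, and lower in recovery than drought. Over all 22898 rows tested in the 6 wild type libraries, 35.3% were called higher in drought than normal, 16.7% lower in recovery than normal, and 37.3% lower in recovery than drought. The rule used these contrasts, so nothing is read from the counts of members. With an absolute log2 fold change of at least 1 also required, the calls were 183 members (17% of all rows tested) for drought over normal, 41 (2.38%) for recovery below normal and 300 (19.9%) for recovery below drought. A fit that also took in the osbzip23 libraries gave 293 (19.5%), 237 (4.12%) and 300 (21.4%). The rows of those libraries did not follow the wild type rows (r = 0.0064 with wild type drought across 14199 rows), so the spread and scaling of that fit mix unlike rows and its counts are no measure of the members. The groups did not overlap in any member, with both drought libraries above both normal libraries and both recovery libraries below them. Among the 14199 rows with at least 5 CPM, 40.2% had drought above normal without overlap, 62.5% had recovery below normal, and 49.9% had recovery below drought. A harder demand was that the lower drought replicate reach 1.5 times the higher normal replicate. The higher recovery replicate also had to stay at or under 0.571 times the lower normal replicate. Both were met by 154 of the 300 members and by 157 (1.11%) of the 14199 rows. This demand is the rule made stricter, so members make up nearly all of those rows. Nothing is read from the contrast of these shares.

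The rise in drought was modest for most members. It was under 2-fold in 139 of them (46.3%), from 2-fold to under 3-fold in 116, from 3-fold to under 5-fold in 29, and 5-fold or more in 16. The median drought level was 2.03 times normal. The fall below normal was more uniform, in part because the rule sets its upper end. Recovery lay between 0.5 and 0.571 times normal in 180 members (60.0%), from 0.4 to under 0.5 in 98, from 0.25 to under 0.4 in 15, and under 0.25 in 7, with a median of 0.516.

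Recovery levels must be read against the scale of the libraries. Over all 14199 rows, the median ratio of recovery to normal was 0.867 when counts were divided by library totals, and 0.989 with TMM, a scaling in edgeR that sets the bulk of genes equal between libraries. On the log2 scale TMM raised the median of all rows by 0.19 for recovery over normal, by 0.08 for drought over normal and by 0.11 for recovery over drought. The members' median log2 ratio of recovery to normal was -0.95 by library totals and -0.76 with TMM, and stood 0.75 below the median of all rows with either. TMM moves every row by about the same factor, so this distance hardly depends on it, and the highest member ratio of 0.651 with TMM follows from the limit of the rule. With TMM-scaled levels only 120 of the 300 still met the rule as written. Of the 180 that did not, 178 missed the limit on recovery and 4 the minimum on normal, with 2 missing both, and none missed the limit on drought.

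**Figure D2:**
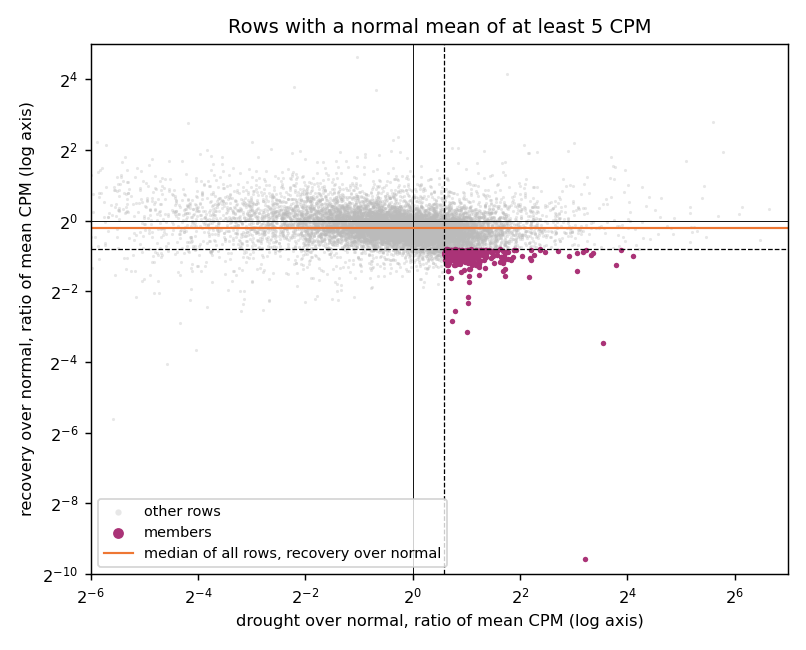
Each point is a row with a normal mean of at least 5 CPM and a drought mean below 1000 CPM, placed by its ratio of drought to normal and of recovery to normal, both on log axes. Dashed lines are the limits of the rule, thin lines mark a ratio of 1, and the orange line is the median ratio of recovery to normal over all rows, 0.867; of 14147 rows, 149 lie outside the axes or at 0 and are not drawn. The members, in purple, crowd the corner where both limits meet, with few far below it.

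Median ratios differed little between members of low and high abundance. The 87 members with 5 to under 10 CPM in normal plants had median ratios of 2.09 for drought and 0.510 for recovery over normal. For the 81 members from 10 to under 20 CPM these were 2.06 and 0.508, and for the 80 members from 20 to under 50 CPM they were 1.94 and 0.531. The 34 members from 50 to under 100 CPM gave 1.94 and 0.516, and the 18 members of 100 CPM or more gave 1.94 and 0.514. Across these levels the median recovery ratio stayed between 0.508 and 0.531. Across classes of the rise, median recovery ratios were likewise not ordered. The median recovery ratio was 0.521 in members with a rise under 2-fold, 0.512 from 2-fold to under 3-fold, 0.492 from 3-fold to under 5-fold and 0.529 at 5-fold or more. Both ratios share the normal libraries.

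Among the steepest risers, OsMH_04G0183100 was at 7.70 and 5.88 CPM in the normal libraries, 117.3 and 116.8 CPM in drought and 3.18 and 3.65 CPM in recovery. Drought was far above both other groups, and recovery lay below normal without overlap. The fitted log2 fold change was 4.18 ± 0.11 for drought over normal and -0.81 ± 0.14 for recovery over normal (SE of the fit). The row OsMH_11G0065400, more abundant, stood at 24.3 and 24.0 CPM in normal plants, 342.1 and 367 CPM in drought and 13.6 and 13.8 CPM in recovery. Its replicates were tight in every group, and its log2 fold change in drought was 3.95 ± 0.06. Its recovery level was 0.566 times normal, just inside the limit of the rule. By the demand on the extreme replicates, neither of these rows passed.

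The row OsMH_06G0459700 was different, since its counts all but vanished after rewatering. It had 835 and 747 counts in the normal libraries and 7242 and 8451 in drought, but 2 and 0 counts in recovery. In CPM this was 20.17 and 19.97, then 173.7 and 197, then 0.0525 and 0. Against the 2 recovery counts, the normal level was 775 times higher, with a 95% counting interval of 214.2 to 6404, and the drought level was 7161 times higher, with an interval of 1982 to 59140. These intervals cover counting error only. The second deepest fall was that of OsMH_04G0244200, at 12.1 and 11.6 CPM in normal, 126 and 149.9 CPM in drought, and 1.02 and 1.12 CPM in recovery. It rose 11.7-fold in drought and then stood 11.0-fold below normal. The fitted log2 fold change for recovery over normal was -3.27 ± 0.16.

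Of the 7 members under 0.25 times normal, these 2 were the only ones with a drought rise of 5-fold or more. The other five rose between 1.66-fold and 2.05-fold and then dropped far. The third deepest had 37.4 and 39.4 CPM in normal, 79.2 and 75.5 CPM in drought and 4.28 and 4.32 CPM in recovery, or 0.112 times normal. The fourth had 50.2 and 49.3 CPM in normal, 80.5 and 84.7 CPM in drought and 6.99 and 6.93 CPM in recovery. In both, the recovery replicates lay within 0.1 CPM of each other. The most abundant of the 7 went from 78.4 and 73.5 CPM to 159.3 and 151.9 CPM and then to 17.1 and 17.0 CPM, with 650 and 666 counts in the recovery libraries.

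The largest drops from drought to recovery after those rows were in OsMH_09G0292400 and OsMH_04G0233000. The row OsMH_09G0292400 held 10.8 and 11.8 CPM in normal, 147.6 and 165.3 CPM in drought and 5.17 and 4.27 CPM in recovery, a log2 fold change of -4.94 ± 0.11 from drought to recovery. The row OsMH_04G0233000 held 9.93 and 11.8 CPM, then 94.1 and 88.0 CPM, then 4.31 and 3.76 CPM, a log2 fold change of -4.38 ± 0.11. Recovery was lowest in every library of both rows. Their levels in recovery were 0.417 and 0.370 times normal, lower than in 12 of the 16 members that rose 5-fold or more, whose recovery stayed above 0.5 times normal.

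**Figure D3:**
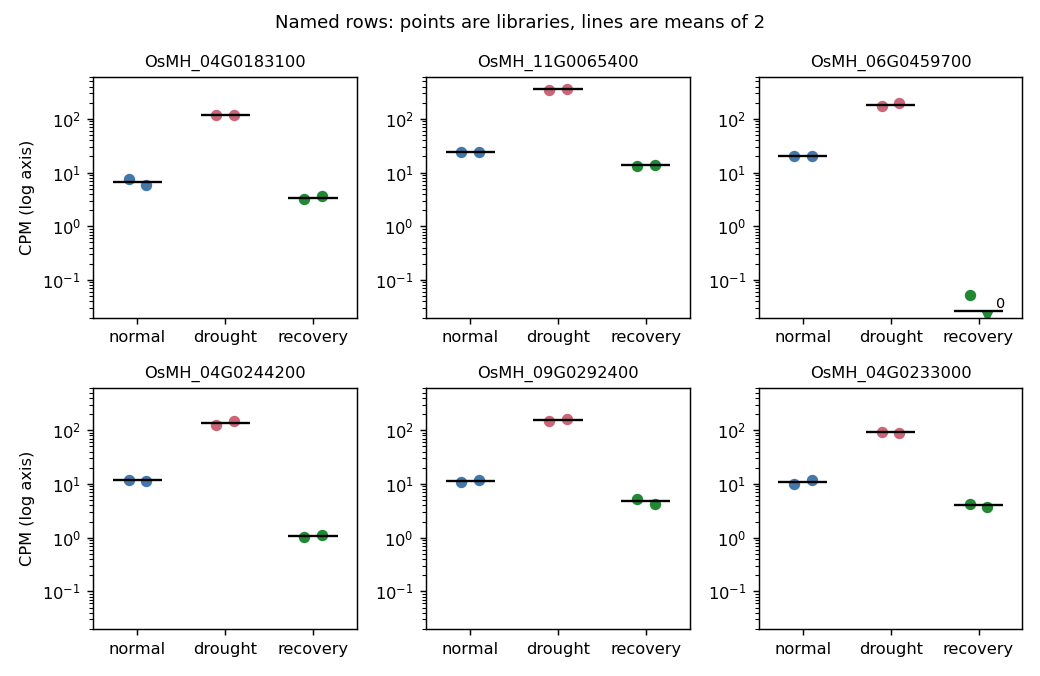
The 6 named rows in each wild type library, in CPM on a log axis. Points are libraries, lines are means of the 2 replicates, and the triangle marked 0 is a library with 0 counts. In each row drought is highest and recovery lowest, and OsMH_06G0459700 falls from 20.17 and 19.97 CPM in normal plants to 0.0525 and 0 CPM in recovery.

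The 10 members most abundant in drought carried 21.2% of the members' summed drought level. They stood between 351.6 and 595.7 CPM in drought, 24.2 and 303.9 CPM in normal and 13.7 and 157.2 CPM in recovery. The most abundant had 153.2 and 162.3 CPM in normal, 618.1 and 573.3 CPM in drought and 86.8 and 91.0 CPM in recovery, a 3.78-fold rise. The second rose much more, 9.33-fold, from 64.8 and 58.5 CPM to 525.1 and 626.1 CPM, and came back to 36.3 and 32.5 CPM. The fourth had the deepest fall among the first 4, from 247.9 and 249.6 CPM in normal and 533.3 and 497.5 CPM in drought to 78.48 and 69.97 CPM in recovery, or 0.298 times normal.

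At the edges of the rule, levels ran on without a gap. The member with the smallest rise was at 1.5036 times normal in drought, and the nearest row outside at 1.4985. For the fall, the last member had a recovery mean of 0.5707 times normal and the nearest row outside 0.5715. The member with the lowest normal mean had 5.02 CPM, and the nearest row below had 4.97 CPM. Only the upper limit of drought was far from the members, since their highest drought mean was 595.7 CPM, and 4 rows that met all other limits lay above 1000 CPM, the lowest of them at 1007 CPM. With recovery limited to the normal mean divided by 1.5 the rule gave 639 rows, and with division by 2 it gave 120.

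The same levels were then read in libraries that had not chosen the rows. Applied to the replicate 1 columns alone, the rule gave 305 rows. In the replicate 2 columns drought was above normal in 305 of them and recovery was below normal in 304. Their median drought ratio was 2.08 in the libraries that chose them and 2.04 in those that did not, and their median recovery ratio was 0.506 and 0.541. Over all 14199 rows, the medians in the replicate 2 columns were 0.911 and 0.870. In the replicate 2 columns 186 of the 305 rows (61.0%) met the whole rule again. The limit on recovery was missed by 99 rows, that on drought by 22 and the normal minimum by 9.

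With the roles exchanged, 309 rows were chosen on the replicate 2 columns and 186 (60.2%) met the rule in the replicate 1 columns. Recovery was below normal in 306 of them, with a median ratio of 0.531 against 0.511 in the libraries that chose them. With TMM scaling, 142 rows were chosen on replicate 1 and 64 (45.1%) met the rule in replicate 2, while recovery was below normal in 140. The directions were the same in nearly every row read anew, and fewer rows met the exact limits. By library totals, 237 of the 305 rows and 237 of the 309 were among the members. The choice of members had used both replicate numbers, so these readings are not support for them. These directions were common by library totals. Without overlap of the groups, 62.5% of the 14199 rows had recovery below normal and 40.2% had drought above normal. The share of all rows with these directions in the libraries of a single replicate number was not counted, by library totals or with TMM. With 1 library a group on each side these readings carry no test.

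**Figure D4:**
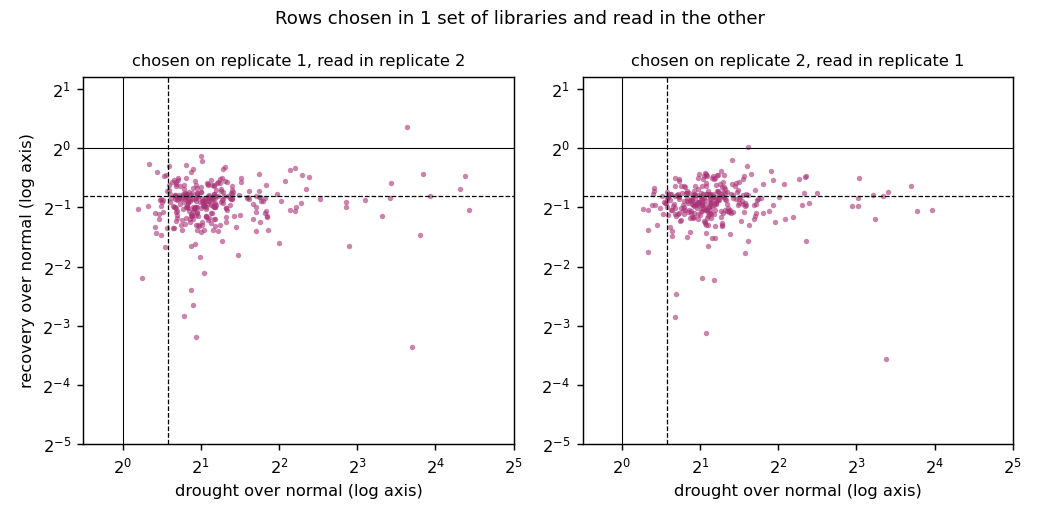
Rows chosen by the rule on the libraries of 1 replicate number, shown by their ratios of drought to normal and of recovery to normal in the libraries of the other number, on log axes. Dashed lines are the limits of the rule and thin lines mark a ratio of 1; 1 of 305 rows on the left and 3 of 309 on the right lie outside the axes or at 0. Most points lie right of 1 and below 1, spread on both sides of the dashed line for recovery.

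Leaving out any of the 6 libraries and choosing again gave between 296 and 319 rows. Without drought replicate 1 or 2, 292 and 291 of the 300 members were chosen again. Without normal replicate 1 or 2 it was 259 and 256, and without recovery replicate 1 or 2 it was 265 and 264. In all 6 omissions 189 members (63.0%) met the rule, and 106 of these also met it with TMM. A drought rise of at least 2-fold together with a recovery level of no more than 0.5 times normal was seen in 69 of the 189.

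**Figure D5:**
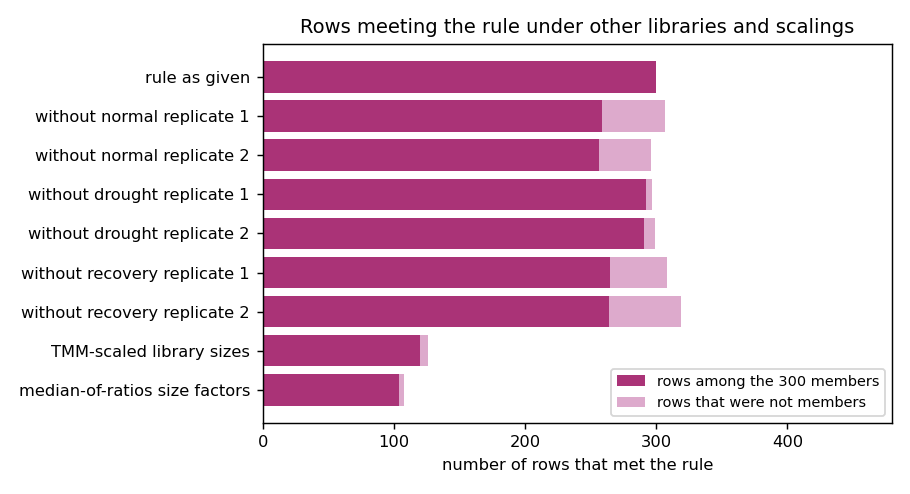
Number of rows that met the rule as given, with each wild type library left out, and with 2 other scalings of the counts. Dark bars are rows among the 300 members and light bars are other rows. Omission of a library kept from 256 to 292 members, while TMM kept 120 and median-of-ratios scaling kept 104.

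Set beside the other drought-raised rows, the members' rise was close to that of the 2581 rows that came back near normal, with median ratios of drought to normal of 2.03 and 2.01. The 71 rows that in recovery stood as far above normal as the members stood below it, or farther, had a median rise of 3.38-fold. Median drought levels were 38.4 CPM in members, 49.6 CPM in the 2581 rows and 65.4 CPM in the 71 rows. From drought to recovery the median drop was 4.11-fold in members, 2.48-fold in the 2581 rows and 1.40-fold in the 71 rows. These classes were cut on recovery, share all libraries and were not tested against each other.

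Members were spread evenly over the 14199 rows with at least 5 CPM, but not over the whole table. The first member stood at row 34 and the last at row 40800 of 59903. When the 14199 rows were divided in table order into 10 parts, each part held from 26 to 32 members, or 1.83% to 2.26% of its rows. A member stood directly before or after another, counting only these 14199 rows, in 19 of 300 cases (6.33%), while 4.12% of the other rows stood beside a member. Within 5 rows on either side these shares were 24.3% and 18.6%, and over all rows of the table, directly before or after, 5.0% and 0.976%. The last pair sets members, all of at least 5 CPM in normal plants, beside rows of any level. Only 30074 of the 59903 rows held a wild type count, so nothing is read from that contrast. Neighbours count each other, so these shares carry no interval. The 19 members formed 8 pairs and 1 run of 3. By the rule all members rise in drought and fall below normal, so neighbouring members are alike in that by choice. Their rises were close in some cases and not in others, such as a pair at 1.61-fold and 2.82-fold. The row before OsMH_04G0233000 rose 8.35-fold in drought, as OsMH_04G0233000 itself rose 8.36-fold, from 41.3 and 40.1 CPM to 336.4 and 343.2 CPM, and then fell to 21.0 and 21.9 CPM. The level of the first over the second was 4.16 and 3.39 in the normal libraries, 3.58 and 3.90 in drought and 4.88 and 5.83 in recovery. This pair thus did not keep a fixed ratio, and its normal replicates already differed. Another pair was steadier, at 0.253 and 0.251 in normal, 0.263 and 0.252 in drought and 0.217 and 0.224 in recovery. Whether neighbouring rows share reads was not tested.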

How the data were processed

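The deposited table held raw counts per gene, 1 column per sample, with no normalization by the authors, per the file headers. Per the submitters' processing notes, StringTie 2.1.7, STAR 2.7.10a and fastp 0.23.0 were used, with no role stated; build, annotation, strand setting and treatment of shared reads are not given in the sources used here, so counts of paralogous or overlapping genes are uncertain. The 6 wild type libraries were used. The osbzip23 rows did not correspond to them and were left out, except from an alternative fit of all 8 libraries and a description of their values in the member rows.

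Members were chosen on CPM by column total. Counts were fitted with edgeR 4.0.16 in R 4.3.3 (TMM, filterByExpr, quasi-likelihood F-test, 6 libraries, 3 residual degrees of freedom, Benjamini-Hochberg over 22898 rows), a procedure tested on simulated data. Errors are SD of 2 libraries or SE of the fit. The SE was derived as the absolute log2 fold change divided by the square root of the F statistic. Replicates differed by more than counting noise (chi-square per degree of freedom 4.44 to 7.08). Ratios, shares and intervals came from Python 3.11.15, pandas 2.3.3 and SciPy 1.17.1; the intervals of ratios against few counts cover counting error only.

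The members were chosen with earlier results of these data known. Row labels carry no gene name, so up to 2 were printed per comparison: the largest fold among members whose groups did not overlap, passing over rows already named. Members described without a label were the deepest, the most abundant and those at the limits. Alternatives were other scalings, DESeq2 1.42.0, other filters and limits, a fit of all 8 libraries, fits of the 4 libraries compared, a block for the replicate number, and omission of each library in turn.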

Additional observations from a re-analysis of the deposited data

How the results depend on the processing

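The number of members moved with the scaling, to 126 rows with TMM and 108 with median-of-ratios size factors, and with the limits. These gave 120 rows (recovery at or below normal divided by 2), 639 (divided by 1.5), 161 (drought at least 2 times normal), 132 (normal of at least 20 CPM) and 1136 (no normal minimum). The median log2 ratio of drought over normal, 1.02, became 1.10 and 1.09 with TMM and median-of-ratios factors, and that of recovery over normal, -0.95, became -0.76 and -0.74. Leaving out 1 library gave 296 to 319 rows, medians of 0.99 to 1.05 for drought and -0.97 to -0.95 for recovery over normal, and 291 to 300 members called lower in recovery than normal. Requiring an absolute log2 fold change of at least 1, 183 members were called higher in drought and 41 lower in recovery than normal. In the fit of all 8 libraries, which mixes rows that do not correspond, these were 293 and 237. With TMM 45.1% of rows chosen on replicate 1 met the rule in replicate 2. With 5 rows on either side, 24.3% of members and 18.6% of other rows had a member neighbour.

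The labels do not tie a replicate number to a seedling batch, and replicate deviations of the groups correlated at -0.023 to 0.015 across 22898 rows. With the replicate block 300 members were called higher in drought, 299 lower in recovery than normal and 300 lower than drought. The 6 named rows kept direction and call in each of 14 other fits; the log2 fold change of OsMH_06G0459700 for recovery over normal ran from -12.61 to -8.31, the extremes coming from omitted libraries. Recovery counts were lowest in that row. In each recovery library 10 members had under 100 counts, 3 of them under 50. How far counting error decides membership near the limits of the rule was not tested.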

Other observations

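The osbzip23 libraries, from drought-treated plants, gave the member rows values that did not follow the wild type. Both osbzip23 libraries held 0 counts in 127 of the 300 member rows (42.3%), as in 41.9% of all 14199 rows with at least 5 CPM in normal wild type plants. Across the 300 rows, log2(CPM + 1) in osbzip23 and in wild type drought correlated at r = -0.023, and across all 14199 rows at 0.0064, so the mismatch belongs to the whole table. Across the 300 rows normal and drought wild type correlated at 0.907 and the osbzip23 pair at 0.990. Whether both sets of columns follow the same row order was not tested. These are values of rows, and no effect of the genotype on the members is read from them.

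Of the rows chosen on 1 replicate number, 4 did not have recovery below normal in the other number, and none of them was a member. In a pair of these the normal libraries disagreed outright, with 0 counts in replicate 1 and 283 counts in replicate 2 in the first, and 0 and 369 counts in the second, while drought counts were alike, at 1071 and 1080 in the first and 991 and 909 in the second. The third had 157 and 366 counts in the recovery libraries, beside 2711 and 3899 in drought. The fourth had 241 and 178 counts in recovery. These rows were picked out after their values were seen.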
